A study of Homo sapiens with 10 samples.

Results

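The ZNF genes of human chromosome 19 were described in U2932, an established human line derived from a diffuse large B cell lymphoma, which is a malignancy of mature B lymphocytes. The members are the protein-coding genes with a symbol that starts with ZNF, on chromosome 19 of GRCh38, whose mean over the 10 libraries was at least 1 CPM (read counts per 1000000 counts of a library). They numbered 210 of the 247 such genes in the table, which holds 21174 gene identifiers. By position, 68 members lay on the short arm (19p) and 142 on the long arm (19q). A single member, ZNF558, did not pass the filter on low counts, so tests covered 209 members among 11961 genes. Of the 37 genes below the limit, 13 had no count in any library. Just inside the limit were ZNF443, with 0.763 to 1.75 CPM in CREBBP+/- libraries and 0.934 to 1.76 CPM in CREBBP+/+ libraries, ZNF625 and ZNF565, and just outside it ZNF878, ZNF284 and ZNF599, with means of 0.996, 0.947 and 0.914 CPM.

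RNA of clones of the line was sequenced in 5 libraries labelled CREBBP+/- (named Het_6 to Het_10 in the table) and 5 labelled CREBBP+/+ (WT_1 to WT_5). CREBBP encodes a histone acetyltransferase that serves as a transcriptional coactivator, and the comparison asks which transcripts differ between the genotypes. All clones were grown in RPMI with serum. How the allele was altered, how clones were derived or whether each library had its own culture is not given in the sources used here. As a consequence, p-values describe the variation among these 10 libraries, which may be technical. The numbers of the CREBBP+/- columns match no labelled clone, so these columns carry a genotype and no clone identity.

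CREBBP itself had 71.4, 77.4, 56.8, 61.5 and 80.7 CPM in Het_6 to Het_10, against 118, 103, 103, 115 and 136 CPM in WT_1 to WT_5, with no overlap. Library totals ran from 10615977 counts (Het_9) to 23020694 (Het_6). All 6 B cell markers examined passed the filter, and in sum they stood at 2029 to 3462 CPM in CREBBP+/- libraries, against 1946 to 3441 CPM for the CREBBP+/+ libraries. The 5 markers of T and NK cells summed to at most 1.4 and 0.824 CPM, and the 3 myeloid markers to at most 1.42 and 1.36 CPM, in CREBBP+/- and CREBBP+/+ libraries. Among 4 stromal and epithelial markers EPCAM alone was above 2 CPM in any library; it stood at 13.7 to 26.7 CPM in CREBBP+/- libraries and at 1.42 to 24.7 CPM in CREBBP+/+ libraries. In bulk RNA, fewer cells that express a gene and less of its RNA per cell cannot be told apart.

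Clustering of the libraries on all tested genes other than the members and CREBBP gave 3 clusters that cross the genotypes. Cluster A held Het_8, WT_1 and WT_2, cluster B held Het_6, Het_7, WT_3, WT_4 and WT_5, and cluster C held Het_9 and Het_10. The clusters come from the data and are no groups of the study, so differences between them are given as descriptions with no test.

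Most ZNF genes of chromosome 19 encode proteins with a tandem array of C2H2 zinc fingers that reads DNA and a KRAB domain that recruits the corepressor TRIM28. TRIM28 in turn brings the histone methyltransferase SETDB1 and heterochromatin proteins, and many of these proteins silence transposable elements. The genes arose by repeated tandem duplication and lie in clusters of paralogs along the chromosome. They are also themselves marked by heterochromatin over their 3′ exons, placed there in part through ZNF274. Near-identical paralogs can share reads, and the authors' treatment of such reads is not given in the sources used here.

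Promoters are shown for ZNF493, the member singled out by genotype, and for ZNF175, ZNF558, ZNF57 and ZNF77, members that were near 0 in some libraries, so that their CG content can be compared. Each runs 5′ to 3′ on the strand of the gene from 250 bases before to 50 bases after the RefSeq start (GRCh38.p14), in lower case with each CG dinucleotide in capitals. The windows are chr19:21396883-21397182 on the plus strand for ZNF493, chr19:51571033-51571332 on the plus strand for ZNF175, chr19:8832255-8832554 on the minus strand for ZNF558, chr19:2900678-2900977 on the plus strand for ZNF57 and chr19:2944922-2945221 on the minus strand for ZNF77.
ZNF493: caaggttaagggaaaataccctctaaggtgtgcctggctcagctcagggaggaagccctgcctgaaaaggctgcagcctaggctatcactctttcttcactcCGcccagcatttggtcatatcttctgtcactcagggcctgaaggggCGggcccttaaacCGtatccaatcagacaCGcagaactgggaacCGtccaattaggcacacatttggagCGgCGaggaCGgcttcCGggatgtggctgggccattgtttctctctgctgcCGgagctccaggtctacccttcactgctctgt
ZNF175: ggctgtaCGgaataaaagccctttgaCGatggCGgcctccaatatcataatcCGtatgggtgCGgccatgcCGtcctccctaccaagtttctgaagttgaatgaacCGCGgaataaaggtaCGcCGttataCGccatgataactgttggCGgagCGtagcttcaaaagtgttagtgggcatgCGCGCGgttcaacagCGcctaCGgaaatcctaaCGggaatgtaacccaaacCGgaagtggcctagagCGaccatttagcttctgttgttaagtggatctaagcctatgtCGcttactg
ZNF558: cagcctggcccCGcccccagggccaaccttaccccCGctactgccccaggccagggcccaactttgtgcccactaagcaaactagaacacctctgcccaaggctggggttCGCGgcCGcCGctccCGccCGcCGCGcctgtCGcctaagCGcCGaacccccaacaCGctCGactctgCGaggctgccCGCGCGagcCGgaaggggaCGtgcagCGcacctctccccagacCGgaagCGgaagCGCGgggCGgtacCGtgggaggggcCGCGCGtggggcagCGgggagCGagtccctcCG
ZNF57: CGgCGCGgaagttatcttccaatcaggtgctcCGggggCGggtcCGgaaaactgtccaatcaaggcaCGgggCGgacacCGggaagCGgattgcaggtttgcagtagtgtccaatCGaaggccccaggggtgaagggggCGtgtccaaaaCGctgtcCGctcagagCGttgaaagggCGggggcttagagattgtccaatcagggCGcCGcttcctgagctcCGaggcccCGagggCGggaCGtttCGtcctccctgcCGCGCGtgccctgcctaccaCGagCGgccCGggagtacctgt
ZNF77: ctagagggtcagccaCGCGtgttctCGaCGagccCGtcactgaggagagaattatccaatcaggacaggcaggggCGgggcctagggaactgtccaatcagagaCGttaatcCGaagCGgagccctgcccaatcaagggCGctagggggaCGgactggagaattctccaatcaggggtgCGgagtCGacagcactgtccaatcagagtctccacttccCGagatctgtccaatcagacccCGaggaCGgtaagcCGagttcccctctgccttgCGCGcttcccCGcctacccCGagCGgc
They hold 10 (ZNF493), 22 (ZNF175), 34 (ZNF558), 29 (ZNF57) and 22 (ZNF77) CG dinucleotides. The ZNF493 window is thus the poorest in CG of these 5 and the ZNF558 window the richest. Low CG did not set ZNF493 apart from its nearest member neighbours. Their windows held 14 (ZNF431), 9 (ZNF708), 9 (ZNF429), 10 (ZNF100) and 12 (ZNF43). Nor was it absent from members that spanned more than 3 on the log2 scale over the libraries. Among these, ZNF90 and ZNF85 held 9 each, although the median of such members was 22 (range 9 to 34).

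A promoter window was found for 190 of the 210 members. Their windows of 300 bases held a median of 20.5 CG dinucleotides (range 6 to 40), against 14 over all 35114 windows. Those windows were not limited to protein-coding genes or by expression, as the members were. The members also include paralogs from tandem duplication, so their windows are not independent. Whether the differences given here are particular to the members was not tested. The letters CCGGAAG, the core of an ETS family site, were found on either strand in 89 of the 190 member windows (46.8%), against 10.3% of all windows. The letters CCAAT were found in 54.2% of member windows against 34.6% of all, and GGGCGG, the GC box, in 65.3% against 45%. AAGATGGC, a YY1 site, was in 7.37% against 2.89%, TGACGTCA, the full CRE to which the CREBBP partner CREB binds, in 3.68% against 1.85%, and the E-box CACGTG in 4.74% against 7.26%. A window can hold several motifs, and CCGGAAG and AAGATGGC can overlap by their shared letters AAG. Of the 5 windows shown, those of ZNF493, ZNF175 and ZNF558 held CCGGAAG, and those of ZNF493, ZNF175, ZNF57 and ZNF77 held CCAAT.

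The members were weakly expressed. Their median level per kilobase of exon was 1.39 CPM per kb, against 5.72 CPM per kb over all genes tested. Summed, they made up 2826 ± 329 CPM in CREBBP+/- libraries and 2670 ± 354 CPM in CREBBP+/+ libraries (SD, n = 5 each), a difference smaller than either SD. Between 198 and 207 members reached 1 CPM in a CREBBP+/- library, and between 192 and 209 in a CREBBP+/+ library.

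The 5 members with the highest mean were ZNF146, ZNF121, ZNF266, ZNF317 and ZNF480. ZNF146 encodes a protein made almost wholly of zinc fingers, without a KRAB domain. It had 93.6, 98.6, 196, 120 and 108 CPM in Het_6 to Het_10, against 208, 206, 90, 68.5 and 84.7 CPM in WT_1 to WT_5. The 3 libraries of cluster A were the highest and the genotypes overlapped fully, with a log2 fold change (CREBBP+/- over CREBBP+/+) of -0.09 ± 0.35 (SE). ZNF121 had 82.5, 86, 231, 120 and 124 CPM in Het_6 to Het_10, against 170, 190, 74.2, 75.2 and 69.5 CPM in WT_1 to WT_5, again highest in cluster A. ZNF266, ZNF317 and ZNF480 lay between 49.9 and 124 CPM in every library.

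By genotype, no member was called higher or lower in CREBBP+/- libraries by edgeR, the main test. With edgeR's quasi-likelihood test and Benjamini-Hochberg adjustment over all genes, 0 of 209 members passed an adjusted p of 0.05, as did 0% of all genes, CREBBP included. At an unadjusted p under 0.05, 10 members were higher and 1 was lower in CREBBP+/- libraries, 4.78% and 0.478% of the members, against 2.38% and 2.60% of all genes. DESeq2 called 1 member higher, ZNF493, and 0 lower, against 0.109% and 0.167% of all genes. limma-voom called 0 members. DESeq2 with the library clusters as a covariate, added after the data were seen, called 3 members higher, against 0.393% of all genes: ZNF493 with a log2 fold change of 0.43 (adjusted p = 0.0446), ZNF121 with 0.27 (adjusted p = 0.0241) and ZNF175, which was near 0 in some libraries, with 3.24 (adjusted p = 0.00921).

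Small positive differences were frequent among the members. The point estimate lay above 0 for 146 of 209 members (69.9%), against 47.6% of all genes. The median log2 fold change of the members was 0.08, and it was 0.08 on 19p and 0.08 on 19q, against -0.01 over all genes. The 212 ZNF genes on other chromosomes had a median of 0.03, with 124 above 0, and the other protein-coding genes of 19p and 19q had medians of -0.05 and -0.04. A log2 fold change of 0.08 is small beside the median range of a member over the 10 libraries, which was 1.00 on the log2 scale.

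The positive shift was also present among libraries of the same cluster. Within cluster A, Het_8 minus the mean of WT_1 and WT_2 had a median of 0.09 over the members, with 130 above 0 (62.2%), against 50.6% of all genes. Within cluster B, the mean of Het_6 and Het_7 minus the mean of WT_3, WT_4 and WT_5 had a median of 0.09 with 131 above 0 (62.7%), against 49.6% of all genes. The 212 ZNF genes of other chromosomes had a median of 0.12 within cluster A, larger than that of the members, with 147 above 0, and a median of 0.02 within cluster B, with 111 above 0. Cluster C holds no CREBBP+/+ library and gives no such value. The median was 0.04 without Het_8 and 0.18 without WT_2, and it was 0.06 without Het_9 and Het_10.

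**Figure D1:**
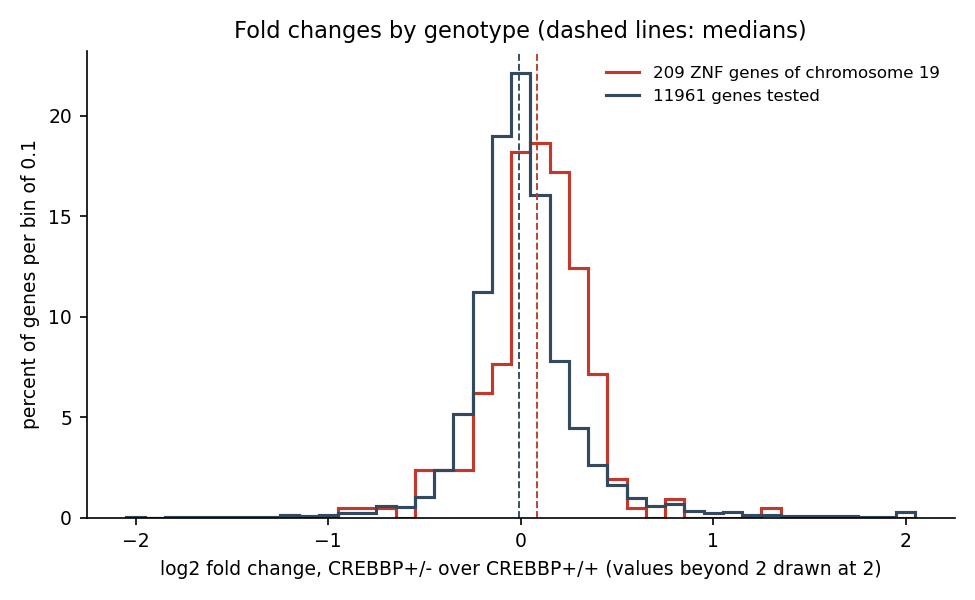
Distribution of log2 fold changes (x axis, CREBBP+/- over CREBBP+/+) for 209 ZNF genes of chromosome 19 in red and all 11961 tested genes in dark blue, as the percent of genes per bin (y axis). Dashed lines mark the medians of 0.08 and -0.01, and the red curve lies to the right of the dark one over its central part.

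The libraries of the 2 genotypes did not overlap for 6 members, all higher in CREBBP+/-, which is 2.87% of the members against 0.426% of all genes in that direction, and for 0 members in the lower direction, against 0.594% of all genes. These 6 were ZNF493, ZNF708, ZNF17, ZNF507, ZNF91 and ZNF441. Their log2 fold changes ranged from 0.25 to 0.48, and 4 of the 6 lay on 19p. The adjusted p of each was 0.755 or more by edgeR.

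ZNF493, a C2H2 zinc finger gene at chr19:21397119-21427577 on the plus strand, was included because an earlier analysis of these data called it, so its values are descriptions. It had 17.0, 16.9, 16.2, 18.3 and 17.1 CPM in Het_6 to Het_10, against 11.8, 10.4, 14.4, 13.2 and 12.3 CPM in WT_1 to WT_5. Every CREBBP+/- library lay above every CREBBP+/+ library, in each cluster that holds both genotypes. The mean was 17.1 ± 0.738 CPM in CREBBP+/- libraries and 12.4 ± 1.51 CPM in CREBBP+/+ libraries (SD, n = 5 each), 1.38-fold higher. The log2 fold change was 0.46 ± 0.11 (SE), with an adjusted p of 0.755 by edgeR and of 0.0219 by DESeq2. Within cluster A the difference was 0.55 and within cluster B 0.35 on the log2 scale. By DESeq2 the call was lost without any 1 of Het_6, Het_7, Het_9, Het_10, WT_1, WT_2, WT_4 or WT_5, with adjusted p up to 0.197, and held without Het_8 (adjusted p = 0.0233) and without WT_3 (adjusted p = 0.00253). Without Het_9 and Het_10 together it was 0.524. It shared 1.75% of its exon bases with other annotated genes, and its promoter, shown above, held 10 CG dinucleotides.

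The 3 members on each side of ZNF493 belong to the same run of paralogs. On the side of the short-arm end, ZNF708 had 9.86, 10.1, 10.2, 13 and 13.2 CPM in Het_6 to Het_10, against 8.38, 9.44, 8.39, 7.86 and 7.35 CPM in WT_1 to WT_5, with no overlap and the highest values in cluster C (log2 fold change 0.45 ± 0.14 SE, adjusted p = 0.842 by edgeR). ZNF431 and ZNF738 overlapped between genotypes, with log2 fold changes of 0.29 and 0.29. On the centromere side, ZNF100 had 12.8, 11.4, 11.8, 14.4 and 12 CPM in Het_6 to Het_10, against 8.44, 9.28, 12.3, 8.68 and 8.96 CPM in WT_1 to WT_5, where WT_3 alone reached the CREBBP+/- range. Its log2 fold change was 0.39 ± 0.14 (SE), with an adjusted p of 0.97 by edgeR; without WT_3, DESeq2 gave 0.49 with an adjusted p of 0.0234. ZNF429 and ZNF43 had 0.05 ± 0.20 and 0.34 ± 0.24 (SE) with overlapping libraries. Within this run of 21 members at 19.7 to 22.1 Mb the median log2 fold change was 0.24, and the median correlation between pairs of members over the 10 libraries was 0.13, equal to that of members in different runs.

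**Figure D2:**
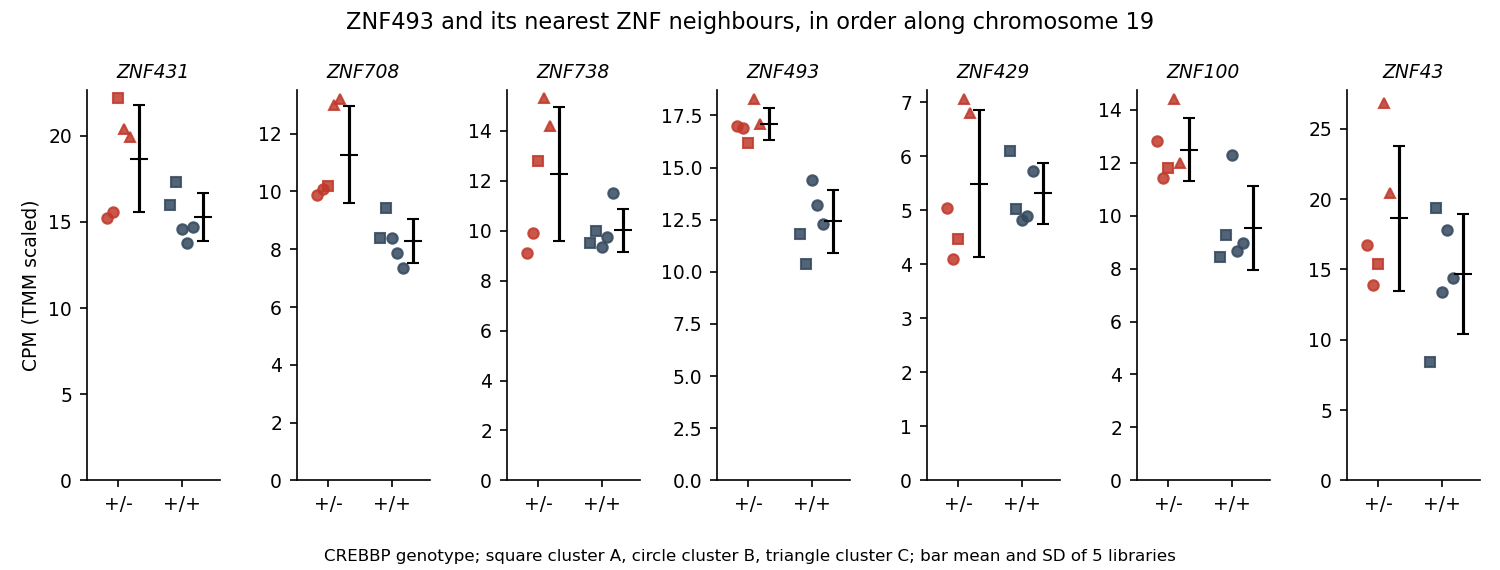
CPM (y axis, TMM scaled) of ZNF493 and its 3 nearest member neighbours on each side, by CREBBP genotype (x axis); each point is a library, its shape the library cluster, and the bar the mean and SD of 5 libraries. ZNF493 and ZNF708 show no overlap, with ZNF493 at 16.2 CPM or more in CREBBP+/- and at 14.4 CPM or less in CREBBP+/+ libraries.

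The other 4 members without overlap had log2 fold changes of 0.25 to 0.48. ZNF17 had 8.79, 10.7, 13.6, 12.4 and 10.2 CPM in Het_6 to Het_10, against 8.69, 8.73, 6.99, 7.47 and 7.92 CPM in WT_1 to WT_5 (log2 fold change 0.48 ± 0.15 SE, adjusted p = 0.842 by edgeR). Het_6 and WT_2 were nearly equal, so the separation rests on a narrow gap. ZNF507, whose product carries zinc fingers without a KRAB domain, had 53.3, 52, 61, 60.8 and 59.5 CPM in Het_6 to Het_10, against 48.2, 48, 48, 47.2 and 49.8 CPM in WT_1 to WT_5 (0.25 ± 0.08 SE, adjusted p = 0.842 by edgeR). Its CREBBP+/+ libraries lay close together, with an SD of 0.931 CPM. ZNF91, a KRAB protein that binds SVA retrotransposons, had 15.7, 18.2, 14.8, 17.6 and 14.3 CPM in Het_6 to Het_10, against 12.6, 13, 14.3, 13.9 and 12.7 CPM in WT_1 to WT_5 (0.28 ± 0.11 SE, adjusted p = 0.977 by edgeR), where Het_10 lay above WT_3 by less than the digits shown. ZNF441 averaged 6.15 ± 0.445 CPM in CREBBP+/- libraries and 5.05 ± 0.725 CPM in CREBBP+/+ libraries (SD, n = 5 each). Its log2 fold change was 0.28 ± 0.15 (SE, adjusted p = 0.986 by edgeR). Here too the gap was narrow, with 5.85 CPM in Het_6 against 5.73 CPM in WT_5. The only member lower in CREBBP+/- libraries at an unadjusted p under 0.05 was ZNF628, with a log2 fold change of -0.47 ± 0.18 (SE, adjusted p = 0.977 by edgeR) and overlapping libraries.

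Of the members with known targets, ZNF91 is given above. ZNF93, which represses L1 retrotransposons, averaged 6.83 ± 1.87 CPM in CREBBP+/- libraries and 7.1 ± 2.64 CPM in CREBBP+/+ libraries (SD, n = 5 each). ZNF274, which binds the 3′ ends of ZNF genes, had 21.3, 23.3, 44.5, 36.8 and 40.2 CPM in Het_6 to Het_10, against 35.9, 42.1, 22.4, 28.5 and 28.1 CPM in WT_1 to WT_5. Its libraries of clusters A and C were all above those of cluster B, while the genotypes overlapped (log2 fold change 0.08 ± 0.24 SE). ZNF331, an imprinted gene, had 11.2 to 22.7 CPM in CREBBP+/- libraries and 14.1 to 28.7 CPM in CREBBP+/+ libraries, with a log2 fold change of -0.25 ± 0.24 (SE).

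The 32 genes of the TRIM28 pathway examined, among them TRIM28, SETDB1, ATF7IP, the HP1 genes CBX1, CBX3 and CBX5 and the HUSH complex gene MPHOSPH8, were all tested. Neither edgeR nor DESeq2 called any of them by genotype. Of all genes, edgeR called 0%, and DESeq2 called 0.109% higher and 0.167% lower. At an unadjusted p under 0.05 by edgeR, 1 of the 32 was higher and 0 lower, against 2.38% and 2.60% of all genes. This was MPHOSPH8, with a log2 fold change of 0.29 (adjusted p = 0.977 by edgeR). Counts this small among 32 genes are near the shares over all genes. The median of the 32 genes was -0.06, with 11 above 0, against -0.01 and 47.6% of all genes. TRIM28 averaged 662 ± 125 CPM in CREBBP+/- libraries and 705 ± 62.2 CPM in CREBBP+/+ libraries, and SETDB1 45.3 ± 3.83 CPM and 46.1 ± 2.2 CPM (SD, n = 5 each).

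Differences between library clusters were wider than those by genotype. The summed level of the members was 2959 and 2965 CPM in the libraries of cluster C, 2920 to 3231 CPM in cluster A and 2389 to 2505 CPM in cluster B. Clusters C and A thus lay above cluster B without overlap, and the CREBBP+/- libraries Het_6 and Het_7 lay with the CREBBP+/+ libraries of cluster B. The sum gives most weight to the highest members, such as ZNF146 (mean of 203 CPM in cluster A and 87.1 CPM in cluster B) and ZNF121 (197 and 77.5 CPM). With members weighted equally, the median log2 CPM minus the gene mean was -0.01 to 0.14 in cluster A and -0.17 to -0.06 in cluster B. In Het_9 and Het_10 of cluster C it was 0.16 and 0.15.

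Markers of cell types also differed between clusters. The 6 B cell markers summed to 3058 and 3129 CPM in cluster C, 1946 to 2290 CPM in cluster A and 3014 to 3462 CPM in cluster B, where the differences of cluster A minus cluster B were -0.92 for MS4A1 and -0.79 for CD22 on the log2 scale. The 4 stromal and epithelial markers, nearly all EPCAM, summed to 24.7 and 25.2 CPM in cluster C, 1.69 to 13.9 CPM in cluster A and 20.3 to 26.9 CPM in cluster B. DCN had 1.29 and 0.885 CPM in Het_9 and Het_10 and 0 in the 8 others. T and NK cell markers summed to at most 1.4, 1.31 and 0.824 CPM, and myeloid markers to at most 1.02, 1.42 and 1.08 CPM, in clusters C, A and B, with CD3D and NKG7 at 0 in every library. The part of these differences in the results on ZNF genes was not tested.

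In cluster A relative to cluster B, 71 of 209 members were higher without overlap and 21 were lower (34% and 10%), against 21.9% and 23.9% of all genes. A difference of 2-fold or more was seen for 29 members higher and 2 lower, against 5.09% and 7.46% of all genes. The median difference of mean log2 CPM was 0.07 on 19p and 0.26 on 19q. The other protein-coding genes had medians of -0.14 on 19p and 0.03 on 19q, and the ZNF genes of other chromosomes 0.12.

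In cluster C relative to cluster B, 99 members were higher without overlap and 14 lower (47.4% and 6.70%), against 19.3% and 20.9% of all genes, while 12 were higher and 11 lower by 2-fold or more, against 3.60% and 3.62%. The median was 0.30 on each arm. Among the 212 ZNF genes of other chromosomes 43 were higher and 35 lower without overlap, with a median of 0.04, and the other genes of 19p and 19q had medians of 0.12 and 0.15. The members thus differed in the same direction as their chromosomal neighbours, by a larger median. In cluster C relative to cluster A, 62 members were higher and 55 lower without overlap, against 31.0% and 28.9% of all genes, and 3 were higher and 14 lower by 2-fold or more, against 7.73% and 4.42%. Their median was 0.08, and 0.01 without WT_1.

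**Figure D3:**
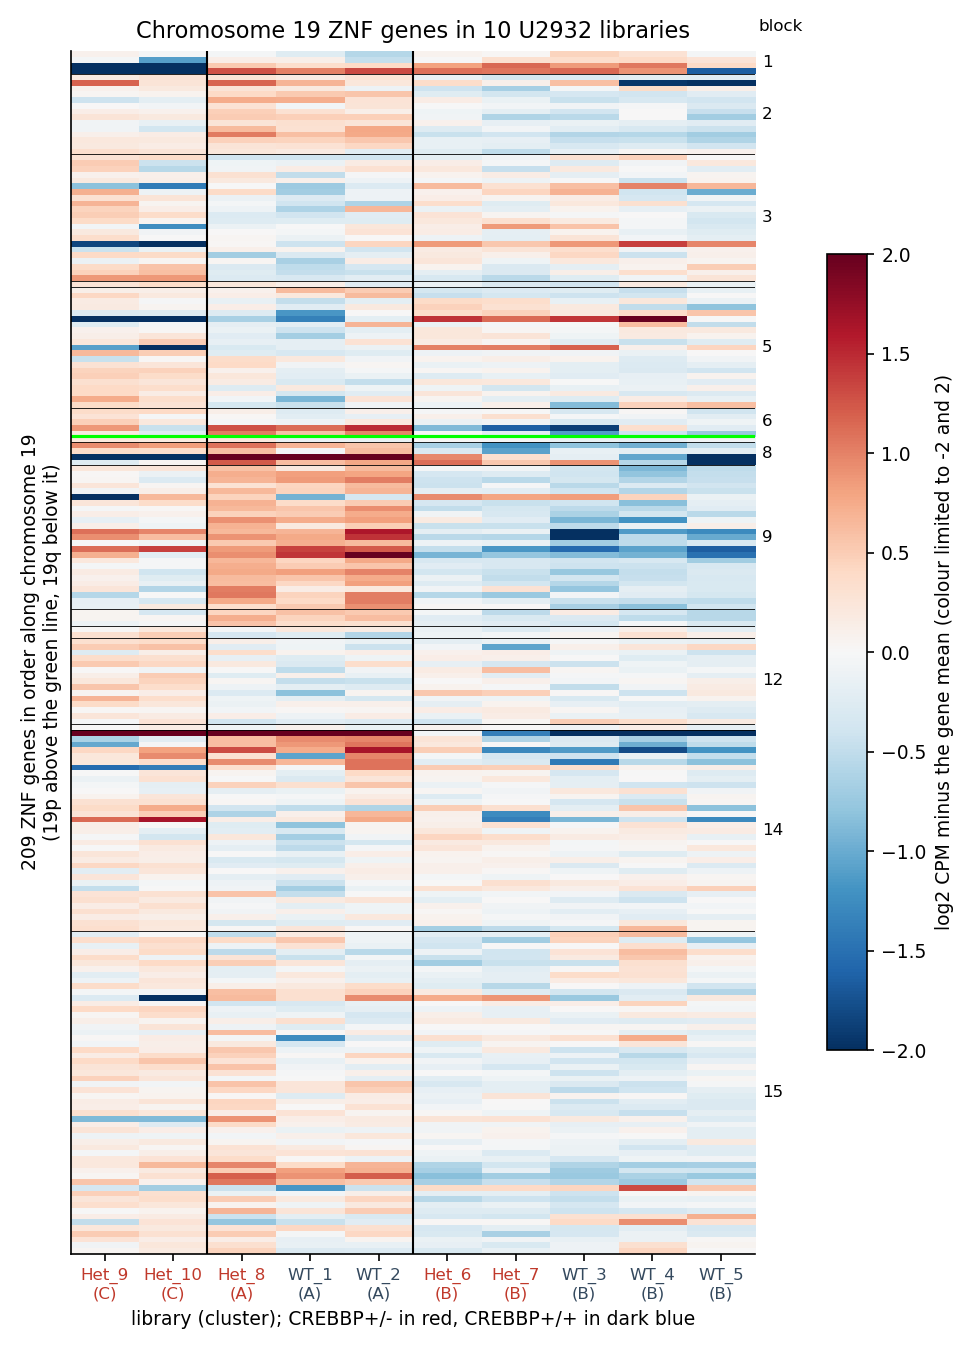
Log2 CPM minus the mean of each gene (colour) for 209 ZNF genes in order along chromosome 19 (rows, 19p above the green line) in 10 libraries (columns, by cluster C, A and B). Thin lines separate runs of members numbered at the right; the run numbered 9 is mostly red in cluster A and mostly blue in cluster B.

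The members were grouped by position, after their values had been seen, into 15 runs in which neighbouring members start at most 1 Mb apart. In the median, adjacent members moved together more than members of different runs, but this varied by run. Across the 10 libraries, the median Pearson correlation was 0.48 over 194 neighbouring pairs and 0.13 over 18638 pairs in different runs, a description over points that share libraries and clusters. Between members of a run, it was 0.69, 0.83 and 0.84 in the runs numbered 2, 9 and 10. It was 0.17, 0.13, 0.29, 0.21 and 0.21 in the runs numbered 3, 5, 12, 14 and 15. Of the 210 members, 80 share exon bases with another gene on the same strand and 70 on the opposite strand, and for 13 the shared part is 50% or more, so reads of such neighbours may be split between them.

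A local pattern lay on 19q at 36.2 to 37.8 Mb, the ninth run, which holds 25 members. There 23 of 25 members (92%) were higher in cluster A than in cluster B without overlap, against 21.9% of all genes. The median difference was 0.99 on the log2 scale, and the median correlation between members was 0.83. ZNF146 lies at its edge. Of its members ZNF382 alone was below 0, at -0.85, and the others ran from 0.67 for ZNF540 to 2.50 for ZNF585B. ZNF585B had 3.54, 5.05 and 8.29 CPM in Het_8, WT_1 and WT_2, against 0.896, 1.01, 0.947, 0.879 and 0.573 CPM in Het_6, Het_7, WT_3, WT_4 and WT_5. Its near paralog ZNF585A had 4.03, 5.73 and 5.29 CPM in the same libraries of cluster A, against 0.625 to 1.54 CPM in cluster B. ZNF568, whose mouse ortholog restrains a placental Igf2 transcript, and its neighbour ZNF829 were higher by 1.97 and 1.99.

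Higher values in cluster A were also seen outside the ninth run and in genes other than ZNF genes. The stretch from 34.7 to 40.1 Mb joins the runs numbered 8, 9 and 10, and was chosen after their values were seen. There 29 of 32 members were higher in cluster A than in cluster B without overlap, against 21.9% of all genes. Their median was 0.99, and 25 of the 32 are those of the ninth run. In the runs numbered 8 and 10, 3 of 4 and 3 of 3 members were higher without overlap. Without overlap, 48 of the 74 other protein-coding genes of the stretch were higher and 5 lower. These are 64.9% and 6.76%, against 21.9% and 23.9% of all genes. Their median was 0.51, with 65 above 0. By genotype the same 32 members had a median log2 fold change of 0.02. In cluster C relative to cluster B the 32 members had a median of 0.38 and the 74 other genes 0.21.

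On 19p, the 14 tested members at 7.1 to 9.8 Mb were also higher in cluster A than in cluster B, all 14 above 0. Their median was 0.69, and 10 (71.4%) were higher without overlap, against 21.9% of all genes. The 26 other genes there had a median of 0.10. This run holds ZNF121, ZNF266 and ZNF317. The runs at 11.5 to 12.6 Mb (22 members) and 19.7 to 22.1 Mb (21 members) had medians of -0.22 and -0.13 in cluster A relative to cluster B. In the first, 5 of 22 members were above 0, and 0 were higher and 3 lower without overlap, a smaller share lower than among all genes. In the second, 10 of 21 were above 0, and 3 were higher and 7 lower without overlap. These are 14.3% and 33.3%, against 21.9% and 23.9% of all genes. Relative to cluster B, cluster C had medians of 0.23 and 0.30 in these runs. In the run at 11.5 to 12.6 Mb ZNF791 had 48.5 and 48.2 CPM in cluster C, against 21 to 22.7 CPM in cluster A and 18.2 to 31.4 CPM in cluster B. The 2 largest runs, at 51.6 to 53.6 Mb (35 members) and 55.5 to 58.5 Mb (56 members), had medians of 0.14 and 0.26 in cluster A relative to cluster B and of 0.21 and 0.23 in cluster C relative to cluster B.

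**Figure D4:**
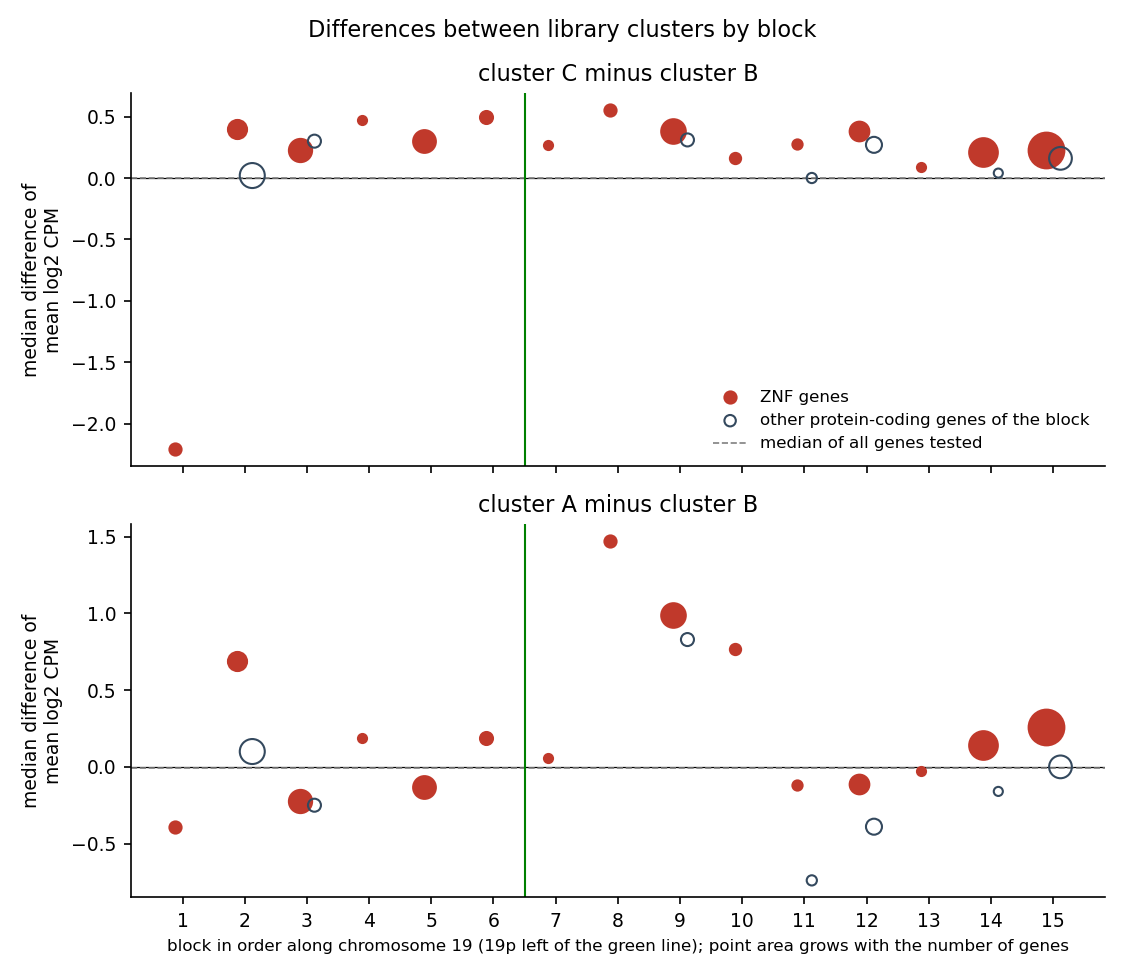
Median difference of mean log2 CPM (y axis) per run of members in order along chromosome 19 (x axis, 15 runs), for cluster C minus cluster B above and cluster A minus cluster B below; filled points are ZNF genes, open circles the other protein-coding genes between the first and last member of the run. In the lower panel the runs numbered 8, 9 and 10 stand highest, at 1.47, 0.99 and 0.77, and in the upper panel the first run stands at -2.21.

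A subset of members ranged from near 0 to several CPM. Over the 10 libraries, 18 of 209 tested members (8.61%) spanned more than 3 on the log2 scale, against 6.58% of all genes, and ZNF558 did so too. Log2 differences of such genes depend on the prior count of 2, so counts are given. ZNF175, a KRAB zinc finger gene on 19q, had 144 and 284 counts in Het_9 and Het_10 of cluster C and 227, 122 and 165 counts in Het_8, WT_1 and WT_2 of cluster A. In cluster B it had 40 and 13 counts in Het_6 and Het_7, against 0, 1 and 1 in WT_3, WT_4 and WT_5. This equals 1.71 and 0.627 CPM against at most 0.055 CPM, so within cluster B the CREBBP+/- libraries were above all 3 CREBBP+/+ libraries, while the genotype fold change over all 10 libraries was 1.31 ± 1.36 (SE) on the log2 scale.

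ZNF558, on 19p, had 159, 152 and 161 counts in Het_8, WT_1 and WT_2, against 4, 0, 0, 1 and 1 in Het_6, Het_7, WT_3, WT_4 and WT_5. In cluster C it had 31 counts in Het_9, the shallowest library, and 4 in Het_10, so the pair of this cluster disagreed. ZNF30 had 98, 75 and 105 counts in Het_8, WT_1 and WT_2, against 38, 21, 15, 6 and 0 in Het_6, Het_7, WT_3, WT_4 and WT_5, and had 1 count in each library of cluster C. Its mean was thus lowest in cluster C, where that of ZNF175 was highest.

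Other members were lowest in cluster C. ZNF57 had 2 and 6 counts in Het_9 and Het_10, against 45 to 101 in the 8 libraries of clusters A and B, and its neighbour ZNF77 had 2 and 4 counts, against 78 to 120 in 7 of the 8 others and 13 in WT_5. In CPM, ZNF77 stood at 0.184 and 0.186 in cluster C. ZNF57 shares 75.2% of its exon bases with other genes and ZNF77 shares none. The run at 2.8 to 2.9 Mb that holds both also has ZNF554 and ZNF555, whose differences of cluster C minus cluster B were -0.13 and -0.83. ZNF563 had 5 and 4 counts and ZNF90 2 and 5 counts in Het_9 and Het_10; in cluster B they had 59 to 93 and 24 to 132 counts, with cluster A between (23 to 48 and 7 to 20 counts).

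**Figure D5:**
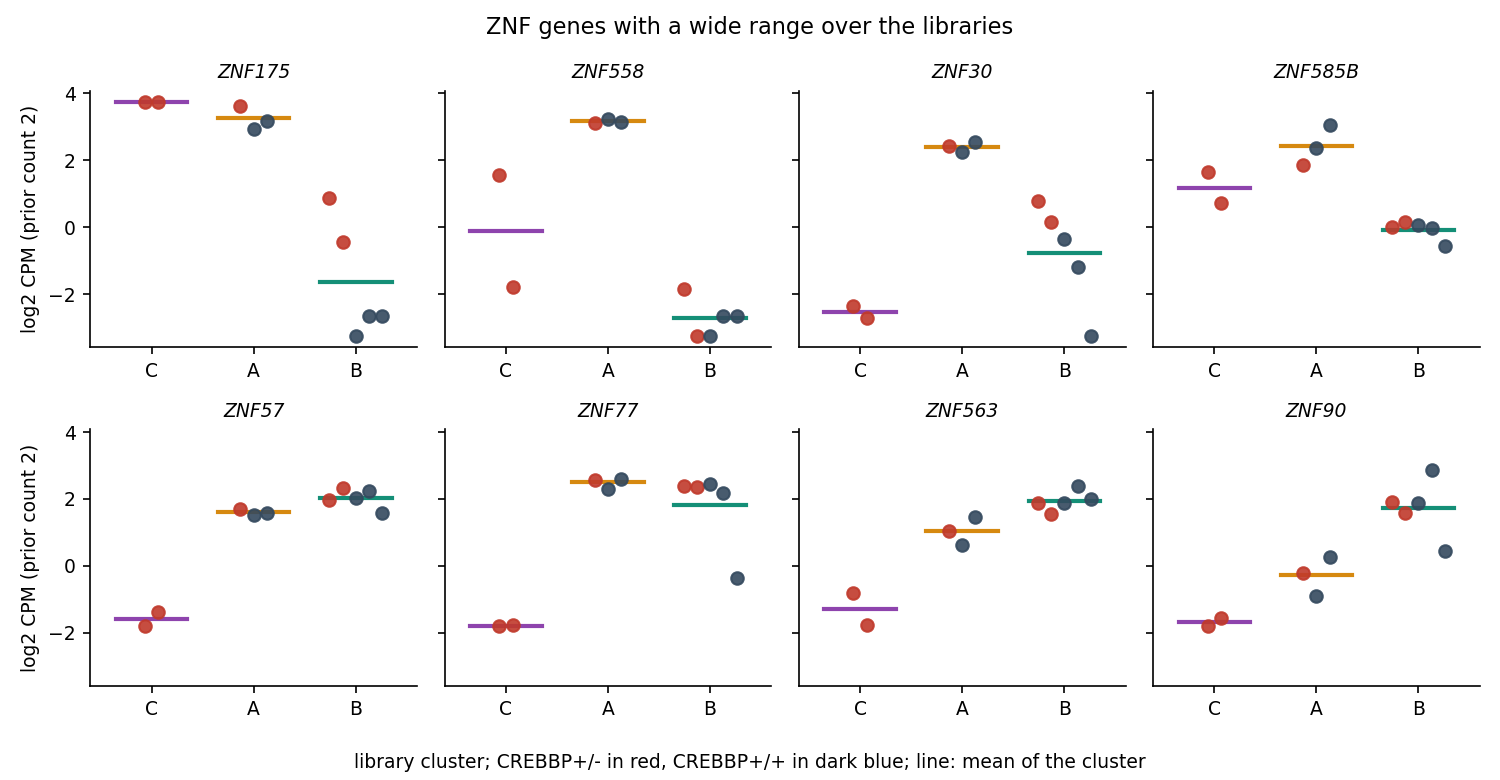
Log2 CPM (y axis, prior count 2) of 8 members by library cluster (x axis, C, A and B); each point is a library, red for CREBBP+/- and dark blue for CREBBP+/+, and the line is the mean of the cluster. ZNF175, ZNF558, ZNF30 and ZNF585B are lower in cluster B than in cluster A, and ZNF57, ZNF77, ZNF563 and ZNF90 are lowest in cluster C.

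Among members that stayed above 1 CPM in most libraries, ZNF614 on 19q was low in cluster C. It had 4.87 and 5.45 CPM in Het_9 and Het_10, against 14.1 to 30.6 CPM in cluster A and 15 to 20.5 CPM in cluster B, so cluster C lay below every other library. The nearby ZNF528 went the other way, with 2.94 and 4.24 CPM in Het_9 and Het_10, against 1.42 to 2.24 CPM in cluster A and 0.434 to 1.37 CPM in cluster B. Opposite directions were thus found within the same run of paralogs, at 51.6 to 53.6 Mb, which also holds ZNF175, and ZNF613 with 2.1 to 4.04 CPM in cluster A, against 0.275 to 1.75 CPM in cluster B.

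On 19p, ZNF430 was highest in cluster C, with 20.9 and 18.9 CPM in Het_9 and Het_10, against 10.7 to 11.4 CPM in cluster A and 12.3 to 13.5 CPM in cluster B. It lies in the run of ZNF493, as do ZNF85 and ZNF93, which were lower in cluster A than in cluster B. ZNF85 had 1.96 to 2.24 CPM in cluster A, against 2.64 to 5.68 CPM in cluster B, and ZNF93 had 2.9 to 6.6 CPM, against 7.58 to 9.85 CPM. ZNF439, in the run at 11.5 to 12.6 Mb, stood at 3.27 to 5.45 CPM in cluster A, against 6.75 to 10.9 CPM in cluster B, and at 3.03 and 2 CPM in Het_9 and Het_10. ZNF490 and ZNF564, of the same run, were 0.92 and 0.86 higher in cluster C than in cluster A on the log2 scale, but share 51.1% and 69.9% of their exon bases with other genes. On 19q, ZNF135 had 0.678 to 1.2 CPM in cluster A, against 2.18 to 4.23 CPM in cluster B, ZNF470 had 16 and 5 counts in Het_9 and Het_10, against 37 to 65 in cluster A, and ZNF610 was 1.06 higher in cluster C than in cluster A on the log2 scale.

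A few members were near 0 in libraries that no cluster sets apart. ZNF792 had 0 counts in WT_5, against 19 to 109 in the other 9 libraries, and ZNF382, for which promoter silencing is described in carcinomas, had 3 counts in Het_9 and 80 in Het_10, against 19 to 109 in the 8 others. ZNF358 had 15 and 9 counts in WT_4 and WT_5, against 75 to 146 in the 8 others. ZNF30 had 0 counts in WT_5 as well. A count of 0 in a library sets an upper limit of 3 counts, for counting error only.

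The promoters of the members with a wide range were set beside those of the other members. The 18 of these 19 members with a window had a median of 22 CG dinucleotides (range 9 to 34), against 20 (range 6 to 40) in the other 172 members. CCGGAAG was found in 10 of the 18 (55.6%) and in 79 of the 172 others (45.9%). CCAAT was found in 55.6% and 54.1%, and GGGCGG in 55.6% and 66.3%. TGACGTCA and CACGTG were in none of the 18 windows, against 4.07% and 5.23% of the others.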

How the data were processed

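RNA was sequenced in 5 CREBBP+/- and 5 CREBBP+/+ libraries. The values are raw counts of reads per Ensembl identifier as deposited by the authors, unpooled, those of 10000 or more rounded to 4 significant digits. Tools listed by the submitters' processing notes are STAR, featureCounts, FastQC and DESeq2, with the build GRCh38; counting options, annotation and strand use: not given in the sources used here. CREBBP+/- columns were matched to their genotype and to no labelled clone. Total counts ran from 10615977 to 23020694 per library, and no pair of libraries agreed within sampling noise (chi-square per gene of 7.77 or more). The closest pairs were Het_9 with Het_10 (7.77) and Het_6 with Het_7 (8.08), followed by WT_1 with WT_2 (12.1). The most distant was WT_2 with WT_4 (130). Libraries of a genotype may thus not be independent of each other.

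Symbols and positions come from the GENCODE annotation of GRCh38, which held 20804 of the 21174 identifiers, with an arm boundary of 25 Mb. The genotypes were compared with edgeR 4.0.16 in R 4.3.3 (quasi-likelihood test, TMM, filterByExpr with a minimum count of 10 and a minimum total of 15, no covariate), with Benjamini-Hochberg adjustment over 11961 genes and calls at 0.05, two-sided. Log2 CPM used TMM factors and a prior count of 2. DESeq2 1.42.0 and limma-voom (limma 3.58.1) were alternatives, and the fitting code was tested on simulated data. Percentages of genes called by DESeq2 run over the 11961 genes tested by edgeR. Libraries were clustered by average linkage on log2 CPM without the members and CREBBP. Promoters were taken from a RefSeq table of GRCh38.p14.

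The members, lists and tests were chosen with earlier results of these data known. Members named are ZNF493 and 3 neighbours on each side, members called by any tool, up to 6 per direction without overlap between genotypes or with the largest difference between clusters, the 5 highest, those next to the limit and 4 with known roles. ZNF628, ZNF358, ZNF792, ZNF382, ZNF540, ZNF554 and ZNF555 were named after their values were seen.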

Additional observations from a re-analysis of the deposited data

Results flagged for a closer look

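Within each genotype group of 5 libraries, a library was singled out where its gap to the nearest other was more than 0.71 of the group's range (Dixon's test, 95%) on the log2 CPM scale. Of 92 such groups tested, 4 had an outlying library, where chance gives about 1 in 20. These were Het_8 for ZNF441 (2.81, the highest CREBBP+/- library) and for ZNF443 (-0.20, the lowest CREBBP+/- library), and WT_3 for ZNF100 (3.63, the highest CREBBP+/+ library) and WT_5 for ZNF77 (-0.35, the lowest CREBBP+/+ library). The count is near that given by chance, and no explanation was tested.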

How the results depend on the processing

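With edgeR, 0 members were called by genotype under every setting run, each library left out included (0 to 0), and limma-voom called 0. DESeq2 called 1, DESeq2 with library clusters as a covariate 3, and DESeq2 without each library in turn 0 to 2 (1 without Het_8, 2 without WT_3). The cause of the difference between tools was not tested. ZNF493 had a log2 fold change of 0.46 by DESeq2 and 0.43 with the clusters as a covariate, where it was called, and 0.40 to 0.52 without each library in turn by either tool, with adjusted p from 0.00253 to 1 over all settings. The median of the members ran from 0.04 to 0.18 without each library in turn and from 0.06 to 0.11 otherwise. ZNF429 turned to -0.00059 with limma-voom, -0.06 without Het_9, -0.04 without Het_10, -0.22 without both and -0.22 with the clusters as a covariate, with -0.06 to 0.14 over the libraries left out in turn, uncalled throughout. Leaving out libraries in turn, added after the data were seen, gave 6.7% to 10.5% of members lower without overlap in cluster C against B (10.5% without Het_9) and a median of 0.01 to 0.11 for cluster C minus A (0.01 without WT_1); the other cluster summaries stayed within 1.5 times or 1 SD. A prior count of 0.5 moved 5 differences between clusters, among them ZNF558 for A minus B to 7.19. For the 10 other members named by genotype, 155 of 160 values by these settings kept direction, uncalled, and the 5 others are those of ZNF429; DESeq2 without WT_3 called ZNF100. All 312 differences of named members between clusters, which have no test, kept direction. No paired analysis was possible because the CREBBP+/- columns carry none of the labelled replicate numbers. Depth limits members below 1 CPM: Het_9, the shallowest library, had 10615977 counts.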
